A study of Homo sapiens with 35 samples.

Results

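Synaptic vesicle and exocytosis genes encode the proteins that load a vesicle onto the release site, fuse it with the plasma membrane when calcium enters, and retrieve it afterwards. The 43 genes were taken from a list of gene symbols, and 39 of them were measured by a probe set that carries exactly 1 gene symbol, out of 11940 genes measured. The others, SYT4, SYT7, CPLX1 and PPFIA4, were not analysed here. The rule uses gene symbols and, for genes with several probe sets, the brightest one, and the list itself was drawn up with earlier results of these data known.

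In a nerve terminal or a secretory cell, a small Rab GTPase with its effectors brings the vesicle to the membrane. The SNARE proteins of vesicle and target membrane then zip into a bundle that draws both membranes together, and a synaptotagmin on the vesicle couples that step to calcium. NSF and its adaptor take the SNARE bundle apart again, while clathrin adaptors, dynamin and synaptojanin recover the membrane. Sympathetic neuroblasts and chromaffin cells use the same machinery to release catecholamines from dense-core vesicles.

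The cells were BE(2)-C, a clonal human neuroblastoma line with amplified MYCN, and the study sought an expression signature of their differentiation. They received 5 μM all-trans retinoic acid (ATRA, the ligand of the retinoic acid receptors), 1 mM valproic acid (VPA, a histone deacetylase inhibitor), 5 μM ATRA together with 1 mM VPA, or the vehicle DMSO, for 6, 24 or 72 h. Each of the 12 groups held 3 Affymetrix arrays, except DMSO at 72 h with 2, which made 35 arrays. The labels describe triplicates and do not say whether these were separate cultures, so p-values measure only the spread between these samples. All groups share 1 cell line, and a bulk array cannot tell fewer cells of a type from less RNA per cell.

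The arrays had medians of 43.63 to 58.895 intensity units, and the lowest of them, DMSO 24 h replicate 1, also had the lowest mean correlation with its own group (0.989). A lower quartile of 20.8 to 23.6 marks the dim end of the scale, and 5 of the genes (SYT13, SYT17, CPLX2, PPFIA2 and AMPH) had no group mean above 30. Markers fixed for the sympathetic neuroblast were present: 7 of 9 measured ones exceeded 100 in every array, while HAND2 group means ran from 25.3 to 40.9 and TH group means from 97.8 to 262. None of 3 Schwann and glial, 5 epithelial or 4 haematopoietic markers measured did so, though KRT19 group means ran from 46.5 to 456. Of 9 mesenchymal markers 5 did not and 4 did. These 4 were VIM (group means 3508 to 6685), TWIST1 (887 to 1985), FN1 (147 to 3940) and SNAI2 (186 to 286).

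Promoter windows of 4 genes are shown because these genes moved in different ways: RAB3A and STX3 with VPA at 6 h, and SYT11 with ATRA from 24 h. SYN1 passed with VPA at 6 h and with each treatment at 24 h, where all calls were lost without DMSO 24 h replicate 1. Each window holds 250 bases before and 50 after the annotated start (RefSeq, GRCh38.p14), read 5′ to 3′ on the gene's strand. They lie at chr19:18203993-18204292 on the minus strand (RAB3A), chr11:59755126-59755425 on the plus strand (STX3), chr1:155859317-155859616 on the plus strand (SYT11) and chrX:47619808-47620107 on the minus strand (SYN1). Capitals mark GGGCGG, the GC box, on either strand, and TGACGTCA, the cAMP response element.
RAB3A: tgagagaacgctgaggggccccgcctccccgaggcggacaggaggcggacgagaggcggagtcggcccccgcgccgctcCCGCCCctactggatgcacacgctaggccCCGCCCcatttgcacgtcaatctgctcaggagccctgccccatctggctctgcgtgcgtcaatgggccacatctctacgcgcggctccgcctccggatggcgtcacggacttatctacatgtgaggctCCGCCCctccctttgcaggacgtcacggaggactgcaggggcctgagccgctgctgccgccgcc
STX3: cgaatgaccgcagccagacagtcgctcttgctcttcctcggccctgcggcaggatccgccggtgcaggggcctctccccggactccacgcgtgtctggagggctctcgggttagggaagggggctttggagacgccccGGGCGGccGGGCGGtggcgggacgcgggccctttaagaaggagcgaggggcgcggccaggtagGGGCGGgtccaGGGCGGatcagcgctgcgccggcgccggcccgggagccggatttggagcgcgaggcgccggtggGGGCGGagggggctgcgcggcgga
SYT11: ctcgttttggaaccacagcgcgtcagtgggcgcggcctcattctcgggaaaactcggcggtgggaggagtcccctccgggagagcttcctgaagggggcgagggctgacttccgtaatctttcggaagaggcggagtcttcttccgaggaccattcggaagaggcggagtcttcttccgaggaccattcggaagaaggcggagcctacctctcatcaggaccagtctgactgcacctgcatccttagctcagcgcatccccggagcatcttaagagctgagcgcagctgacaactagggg
SYN1: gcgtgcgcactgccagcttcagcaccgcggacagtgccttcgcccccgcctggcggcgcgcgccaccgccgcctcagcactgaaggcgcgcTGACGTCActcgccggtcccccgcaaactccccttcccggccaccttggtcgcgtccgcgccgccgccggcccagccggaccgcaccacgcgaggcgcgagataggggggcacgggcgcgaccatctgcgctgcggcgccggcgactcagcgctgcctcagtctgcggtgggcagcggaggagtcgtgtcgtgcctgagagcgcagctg

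The RAB3A window held 3 GC boxes and 30 CpG dinucleotides, and the STX3 window held 5 and 39. No searched motif lay in the SYT11 window, which had 22 CpG, while the SYN1 window held 1 cAMP response element among 46 CpG. Windows were at hand for 33 of the genes, 49 windows in all, and each was searched on both strands. GGGCGG occurred in 67.3% of these windows, against 59.1% of the windows of measured genes and 45.0% of all promoters. TGACGTCA occurred in 2.04%, against 2.60% and 1.85%, and the E-box CACGTG in 6.12%, against 8.57% and 7.26%. The hexamers bound by retinoic acid receptors were found in 16.3% (GGGTCA, against 13.8% and 14.1%) and 8.16% (AGGTCA, against 11.1% and 13.8%). The median CpG count of a window was 30, against 22 in measured genes and 14 in all promoters. SYNGR3, RPH3A and SNAP25 are described below without a printed window.

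The log2 span between lowest and highest group mean had a median of 0.70 over the 39 genes and 0.58 over all 11940. The list was drawn up with earlier results known and was not matched for brightness, so no conclusion is drawn from this difference. The span ran from 0.25 in CPLX2 to 3.63 in SYNGR3. Against DMSO of the same time, 27 of the 39 passed an adjusted p of 0.05 in at least 1 of 9 comparisons. The share of all 11940 genes that did so was not counted. A single comparison called up to 3760 of them (both agents at 72 h), so the 27 are not read as a trait of these genes. The 12 that never did were SYT17, SYNGR4, SNAP23, VAMP1, VAMP2, STX6, NAPA, CPLX2, UNC13B, PPFIA2, PPFIA3 and AMPH. A change of at least 1 on the log2 scale was reached by SYNGR3, RAB3A, SYT11, STX3 and RPH3A, of which RPH3A alone was lower than DMSO. The share of all genes that reached this size was not counted either. All changes here are differences of log2(intensity + 1) from a limma fit, with p-values adjusted by Benjamini-Hochberg over all genes of a comparison. The 3 treatments of a time share their DMSO arrays. Of 83 called changes against DMSO, 42 were kept without any 1 array, and 33 of these also under all other settings tried.

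**Figure D1:**
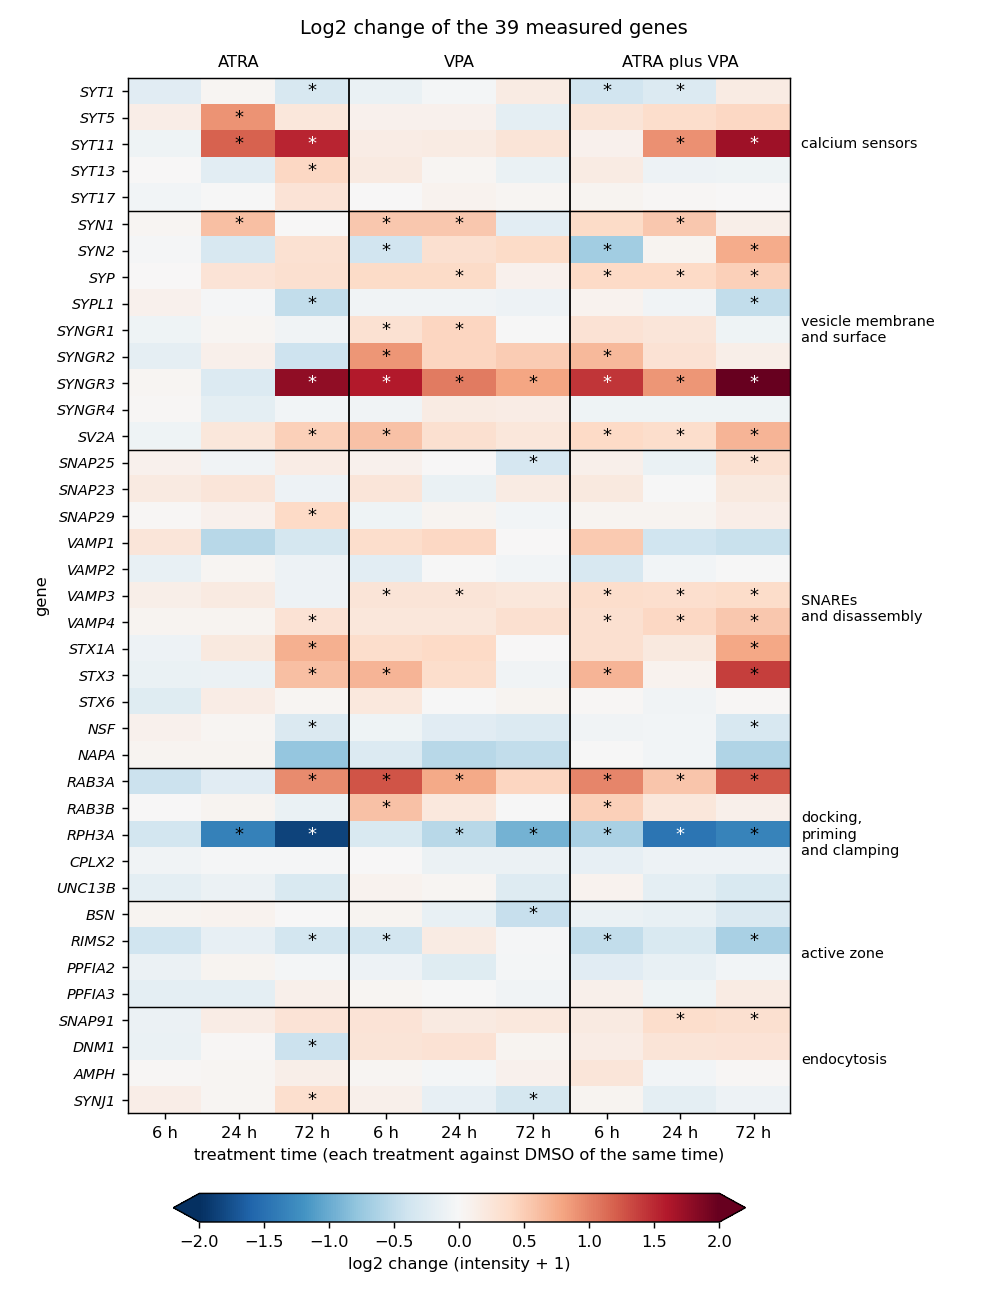
Log2 change of each of the 39 measured genes (rows, ordered by role) for each treatment against DMSO of the same time (columns); red is higher and blue lower in treated cells, the colour scale ends at 2 in either direction, and a star marks an adjusted p under 0.05. SYNGR3 is starred in 7 of the 9 columns and RPH3A, in blue, also in 7.

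The group named calcium sensors held 5 measured synaptotagmins, not all of which bind calcium. SYT11, a synaptotagmin that lacks calcium binding and is known from mouse neurons to restrain vesicle retrieval, rose with ATRA. At 24 h its probe set on chromosome 1 read 1079.5, 1006 and 1142 with ATRA, 549, 496 and 554 with VPA and 803, 862 and 1030.1 with both, against 429, 441 and 567 with DMSO. By 72 h the values were 1824, 1397 and 1545 with ATRA, 650.1, 646 and 681 with VPA and 1749, 1752 and 1869.9 with both, against 556 and 546 with DMSO. Every array that had received ATRA, alone or combined, lay above every DMSO array at both times, and at 72 h the VPA arrays also lay just above DMSO. The log2 change with ATRA was 1.17 ± 0.11 (SE, adjusted p = 2.5e-09) at 24 h and 1.52 ± 0.12 (SE, adjusted p = 1e-10) at 72 h, a 2.86-fold rise at the later time. With both agents it was 0.91 ± 0.11 (SE, adjusted p = 2.9e-07) at 24 h and 1.70 ± 0.12 (SE, adjusted p = 5.3e-12) at 72 h. VPA alone gave 0.26 ± 0.12 (SE, adjusted p = 0.28) at 72 h, which did not pass, and at 6 h no treatment passed. The second probe set of SYT11 moved by 1.58 with ATRA and by 1.78 with both agents at 72 h.

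SYT1, the main calcium sensor of fast release, was a bright gene that moved little. At 6 h it read 2497, 2577 and 2449 with ATRA, 2759.9, 2717 and 2598 with VPA and 2235, 2181 and 2315 with both, against 3008, 2899 and 2901 with DMSO. All treated arrays of that time lay below the DMSO arrays, and the fall with both agents passed, at -0.39 ± 0.08 (SE, adjusted p = 0.00055). At 72 h the readings were 2231, 2313 and 2285 with ATRA, 3189.9, 3174 and 3111 with VPA and 3240.0, 3113 and 3183 with both, against 2959 and 2704 with DMSO. ATRA lay below DMSO there, with a change of -0.31 ± 0.08 (SE, adjusted p = 0.0048), and the other treated arrays lay above it without passing. The ATRA value at 72 h had an adjusted p of 0.06 after adjustment for the 3'/5' ratio and a change of -0.17 after a second quantile normalization, which no longer passed, and it did not pass without DMSO 72 h replicate 1. With both agents at 24 h the fall was -0.27 ± 0.08 (SE, adjusted p = 0.0093), and it was -0.16 and not past the threshold without ATRA plus VPA 24 h replicate 1.

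SYT5, a synaptotagmin found on dense-core vesicles of rat PC12 cells, rose with ATRA at 24 h by 0.89 ± 0.17 (SE, adjusted p = 0.00027), with 71.6, 48.6 and 71.0 in ATRA arrays against 23.8, 40.1 and 38.9 in DMSO arrays. It did not pass at any other time, and the rise was 0.53 with a pseudocount of 32. SYT13, a synaptotagmin without calcium binding, passed once, with ATRA at 72 h (0.42 ± 0.16 SE, adjusted p = 0.049), at group means under 30, and the call was lost under 3 of 6 other settings and without any 1 of 4 of the 5 arrays. SYT17 passed in none of the 9 comparisons.

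Vesicle membrane and surface proteins held the largest change among the 39 genes. SYNGR3, a 4-pass membrane protein of synaptic vesicles on chromosome 16, read 31.6, 23.8 and 24.99 with ATRA, 70.4, 86.8 and 82.3 with VPA and 89.2, 64.4 and 63.0 with both at 6 h, against 21.3, 33.6 and 24.2 with DMSO. At 24 h it read 32.1, 31.4 and 23.7 with ATRA, 72.3, 61.8 and 88.7 with VPA and 78.6, 59.5 and 61.2 with both, against 40.2, 36.5 and 29.5 with DMSO. At both times every array with VPA, alone or combined, lay above every DMSO array, and the ATRA arrays overlapped DMSO. At 72 h the values were 154, 146 and 77.7 with ATRA, 58.5, 61.8 and 61.3 with VPA and 299.8, 321 and 380.0 with both, against 37.1 and 32 with DMSO. All treated arrays were then above DMSO, and the combination lay above both single agents.

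The VPA change of SYNGR3 was 1.58 ± 0.20 (SE, adjusted p = 1.8e-06) at 6 h, 1.04 ± 0.20 (SE, adjusted p = 0.00057) at 24 h and 0.79 ± 0.22 (SE, adjusted p = 0.027) at 72 h. With both agents it was 1.43 ± 0.20 (SE, adjusted p = 7e-06) at 6 h, 0.89 ± 0.20 (SE, adjusted p = 0.0015) at 24 h and 3.23 ± 0.22 (SE, adjusted p = 1.6e-12) at 72 h, a 9.39-fold difference at the last time. ATRA alone passed only at 72 h, with 1.78 ± 0.22 (SE, adjusted p = 3.9e-07). DMSO levels of this gene were near the lower quartile, and the size of the change depended on the pseudocount: with 32 in place of 1, the changes were 0.94 (VPA, 6 h), 0.83 (both, 6 h), 0.65 (VPA, 24 h), 0.54 (both, 24 h) and 0.48 (VPA, 72 h), and the last no longer passed. At 72 h it gave 1.21 with ATRA and 2.45 with both, so the fold holds for a pseudocount of 1. The VPA call at 72 h was also lost without any 1 of the 5 arrays compared.

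**Figure D2:**
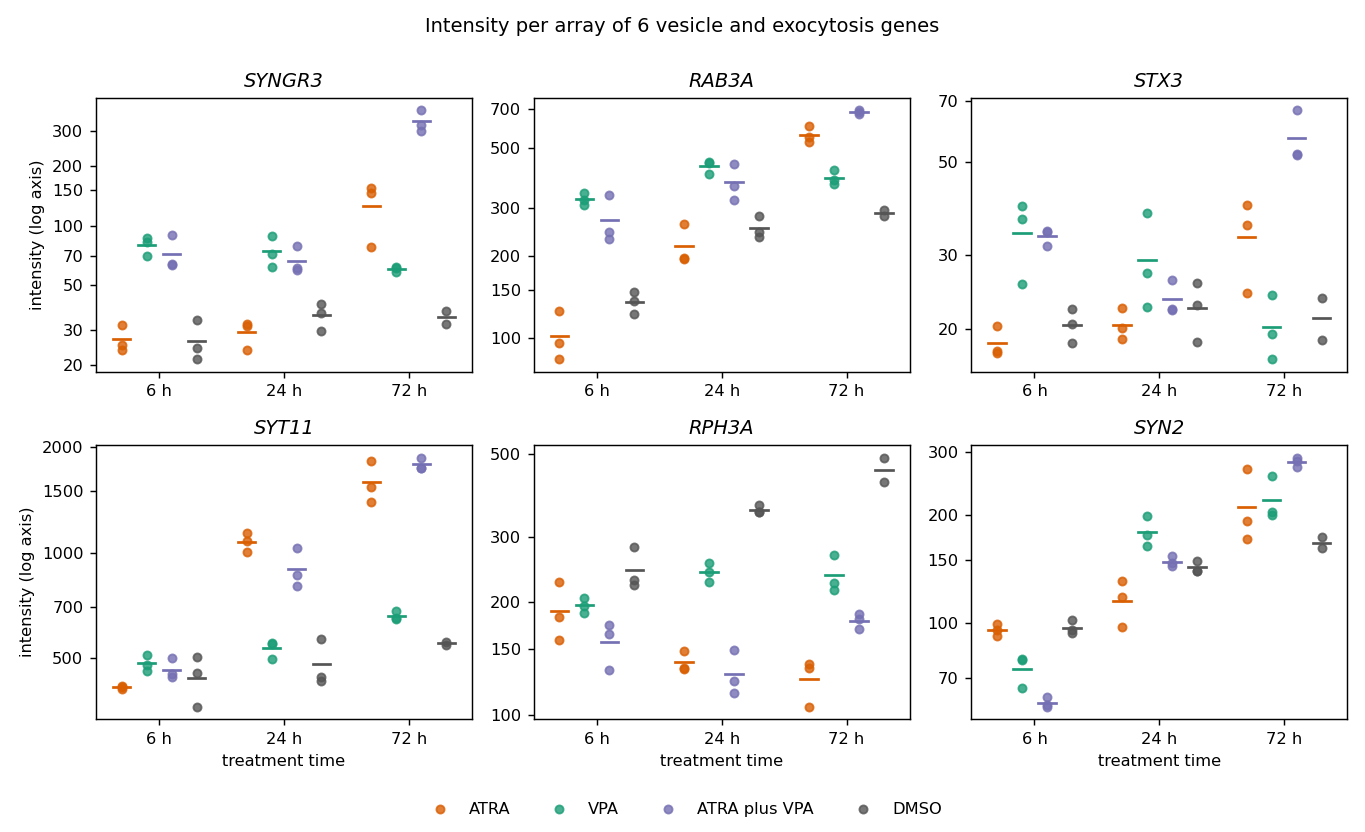
Intensity on every array (points, log axis) and group mean (bars) of 6 genes at 6, 24 and 72 h, coloured by treatment, with ATRA, VPA and ATRA plus VPA left of DMSO at each time. SYNGR3 with ATRA plus VPA at 72 h stands above all its other groups, and RPH3A with DMSO stands above its treated groups at every time, apart from an overlap with ATRA at 6 h.

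Among the synapsins, which tether vesicles to each other and to actin, SYN1 and SYN2 behaved differently. SYN1 at 24 h read 197, 214 and 191 with ATRA, 176, 203 and 192 with VPA and 195, 175 and 203 with both, against 87.5, 142 and 181 with DMSO. Its rises at that time were 0.61 ± 0.15 (SE, adjusted p = 0.0039) with ATRA, 0.53 ± 0.15 (SE, adjusted p = 0.017) with VPA and 0.54 ± 0.15 (SE, adjusted p = 0.0098) with both. The DMSO arrays were spread widely, and without DMSO 24 h replicate 1 the changes were 0.32 (ATRA), 0.24 (VPA) and 0.25 (both), none past the threshold. The VPA call was also lost without VPA 24 h replicate 2. At 6 h it passed with VPA (0.53 ± 0.15 SE, adjusted p = 0.018), where arrays read 271, 193 and 263 against 158, 167 and 170.4 with DMSO, and at 72 h with no treatment. That call was lost without DMSO 6 h replicate 1, VPA 6 h replicate 1 or VPA 6 h replicate 3.

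SYN2 fell with VPA, alone or combined, at 6 h and was above DMSO at 72 h. At 6 h it read 91.8, 99.1 and 95.6 with ATRA, 78.6, 65.5 and 79.1 with VPA and 61.9, 58.8 and 58.2 with both, against 93.7, 95.1 and 102 with DMSO. The changes were -0.38 ± 0.12 (SE, adjusted p = 0.037) with VPA and -0.69 ± 0.12 (SE, adjusted p = 0.00015) with both, and arrays of these groups lay below all DMSO arrays. At 72 h it read 193, 270.0 and 172 with ATRA, 259, 201 and 204 with VPA and 290.1, 273 and 283 with both, against 162 and 174 with DMSO. Only the combination passed then, with 0.75 ± 0.13 (SE, adjusted p = 5.4e-05). Its second probe set moved the other way at 72 h, by -0.22, and the mean of both probe sets gave 0.27. At 6 h that mean gave -0.24 with VPA, no longer past the threshold, and -0.40 with both. The call with VPA at 6 h was kept without VPA 6 h replicate 3 and lost without any 1 of the other 5 arrays.

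SYP, synaptophysin, the classical marker of small vesicles, passed with both agents at each time: 0.40 ± 0.13 (SE, adjusted p = 0.046) at 6 h, 0.40 ± 0.13 (SE, adjusted p = 0.029) at 24 h and 0.48 ± 0.15 (SE, adjusted p = 0.012) at 72 h. SYP also passed as a rise with VPA alone at 24 h, where arrays read 221 to 285 against 168 to 214 with DMSO. Its 72 h readings were 310.4, 263 and 354 with ATRA, 264, 272 and 250.2 with VPA and 323, 351.01 and 358 with both, against 244 and 249 with DMSO. All treated arrays lay above both DMSO arrays. The 72 h call was lost without either DMSO array, with adjusted p up to 0.08, and the 6 h call without DMSO 6 h replicate 1 or 2 or ATRA plus VPA 6 h replicate 1 or 3. The 24 h call with both agents was lost without DMSO 24 h replicate 1 or ATRA plus VPA 24 h replicate 1.

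SV2A, a vesicle glycoprotein that binds the antiepileptic levetiracetam, rose with VPA at 6 h by 0.58 ± 0.12 (SE, adjusted p = 0.00097), with arrays at 695, 602 and 636 against 441, 449 and 401 with DMSO. With both agents it passed at each time, from 0.35 ± 0.12 (SE, adjusted p = 0.035) at 24 h to 0.69 ± 0.13 (SE, adjusted p = 0.00012) at 72 h, and with ATRA at 72 h by 0.48 ± 0.13 (SE, adjusted p = 0.0057). The ATRA call was lost without DMSO 72 h replicate 2 and after adjustment for the 3'/5' ratio. At 6 h the change with both agents was 0.25 and not past the threshold without ATRA plus VPA 6 h replicate 1, and at 24 h it was 0.22 and not past it without DMSO 24 h replicate 1. These calls were also lost without DMSO 6 h replicate 3 (6 h) and without ATRA plus VPA 24 h replicate 1 or 3 (24 h). SYNGR2, a ubiquitous relative of SYNGR3, rose at 6 h with VPA (0.89 ± 0.20 SE, adjusted p = 0.0024) and with both agents (0.65 ± 0.20 SE, adjusted p = 0.027), and passed at no later time. The call with both agents was lost without any 1 of the 6 arrays compared. SYNGR1 rose with VPA by 0.30 at 6 h and 0.44 at 24 h, and the 6 h call was likewise lost without any 1 array. SYPL1, a relative of synaptophysin found outside neurons, fell at 72 h, with changes of -0.49 ± 0.15 (SE, adjusted p = 0.012) with ATRA and -0.49 ± 0.15 (SE, adjusted p = 0.0093) with both agents, calls that were lost without either DMSO array of 72 h. SYNGR4 passed nowhere.

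SNAREs and their disassembly factors made up 12 genes. The plasma membrane SNARE STX1A rose at 72 h, with 152, 113 and 111 in ATRA arrays, 70.3, 74.4 and 83.5 in VPA arrays and 136, 115 and 138 in arrays with both, against 66.7 and 84.9 in DMSO arrays. All ATRA and combination arrays lay above both DMSO arrays, and the VPA arrays overlapped them. The changes were 0.71 ± 0.16 (SE, adjusted p = 0.0011) with ATRA and 0.77 ± 0.16 (SE, adjusted p = 0.00037) with both, and the ATRA call was lost without DMSO 72 h replicate 1.

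STX3, a syntaxin of ribbon synapses and apical membranes, was dim with DMSO. At 6 h it read 17.7, 17.5 and 20.3 with ATRA, 39.3, 25.5 and 36.5 with VPA and 34.1, 31.6 and 34.3 with both, against 22.3, 20.6 and 18.5 with DMSO. At 72 h it read 24.4, 39.5 and 35.5 with ATRA, 24.1, 16.9 and 19.5 with VPA and 52.1, 52.3 and 66.6 with both, against 23.7 and 18.8 with DMSO. The arrays with VPA at 6 h, and those with ATRA at 72 h, alone or combined, lay above DMSO. The changes were 0.68 ± 0.17 (SE, adjusted p = 0.0088) with VPA at 6 h, 0.68 ± 0.17 (SE, adjusted p = 0.0082) with both at 6 h, 0.60 ± 0.20 (SE, adjusted p = 0.019) with ATRA at 72 h and 1.38 ± 0.20 (SE, adjusted p = 1.5e-06) with both at 72 h. Its second probe set showed none of these rises, with differences from -0.13 to -0.03. Leaving out DMSO 6 h replicate 3 ended the VPA call at 6 h, as did leaving out VPA 6 h replicate 1. The ATRA call at 72 h was lost without DMSO 72 h replicate 2, ATRA 72 h replicate 2 or ATRA 72 h replicate 3. With a pseudocount of 32 the changes were 0.32 (VPA, 6 h), 0.32 (both, 6 h), 0.29 (ATRA, 72 h) and 0.74 (both, 72 h). With the mean of both probe sets they were 0.33, 0.28, 0.26 and 0.66 in the same order, and those with both at 6 h and with ATRA at 72 h no longer passed.

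SNAP25, the neuronal partner of STX1A, read 604, 675 and 767 with ATRA, 544, 473 and 443 with VPA and 729.7, 739 and 809 with both at 72 h, against 616 and 606 with DMSO. The VPA arrays lay below DMSO and the combination above it, with changes of -0.33 ± 0.10 (SE, adjusted p = 0.04) and 0.31 ± 0.10 (SE, adjusted p = 0.016). Both calls were lost with the mean of its 2 probe sets and without either DMSO array of 72 h. That with VPA was also lost without VPA 72 h replicate 2 or 3, and that with both without ATRA plus VPA 72 h replicate 3. At 6 and 24 h SNAP25 changed by at most 0.13 in size, and none of these passed.

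VAMP2, the vesicle SNARE of fast release, passed in no comparison: at 72 h it read 131, 136 and 150.1 with ATRA, 145, 138 and 145 with VPA and 153, 149.9 and 138 with both, against 141 and 157 with DMSO. Its largest difference was -0.33 ± 0.12 (SE, adjusted p = 0.085) with both agents at 6 h. VAMP3, a SNARE of recycling endosomes, passed in 5 comparisons with rises of 0.26 to 0.36, and VAMP4, a SNARE of the trans-Golgi network, in 4 with 0.29 to 0.54. Their other probe sets did not all move the same way. The mean of all probe sets of VAMP3 gave -0.10 with VPA at 24 h and -0.08 with both at 72 h, and that of VAMP4 gave -0.04 with ATRA at 72 h. SNAP29, a SNARE of endosomal and autophagic fusion, rose with ATRA at 72 h (0.39 ± 0.11 SE, adjusted p = 0.0077), and NSF, the ATPase that separates SNAREs, fell at 72 h, with changes of -0.28 ± 0.10 (SE, adjusted p = 0.035) with ATRA and -0.32 ± 0.10 (SE, adjusted p = 0.015) with both. The SNAP29 call was lost without DMSO 72 h replicate 2, both NSF calls without DMSO 72 h replicate 1 among others, and the VAMP4 call with ATRA at 72 h without any 1 array. SNAP23, VAMP1, STX6 and NAPA, the adaptor of NSF, did not pass.

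**Figure D3:**
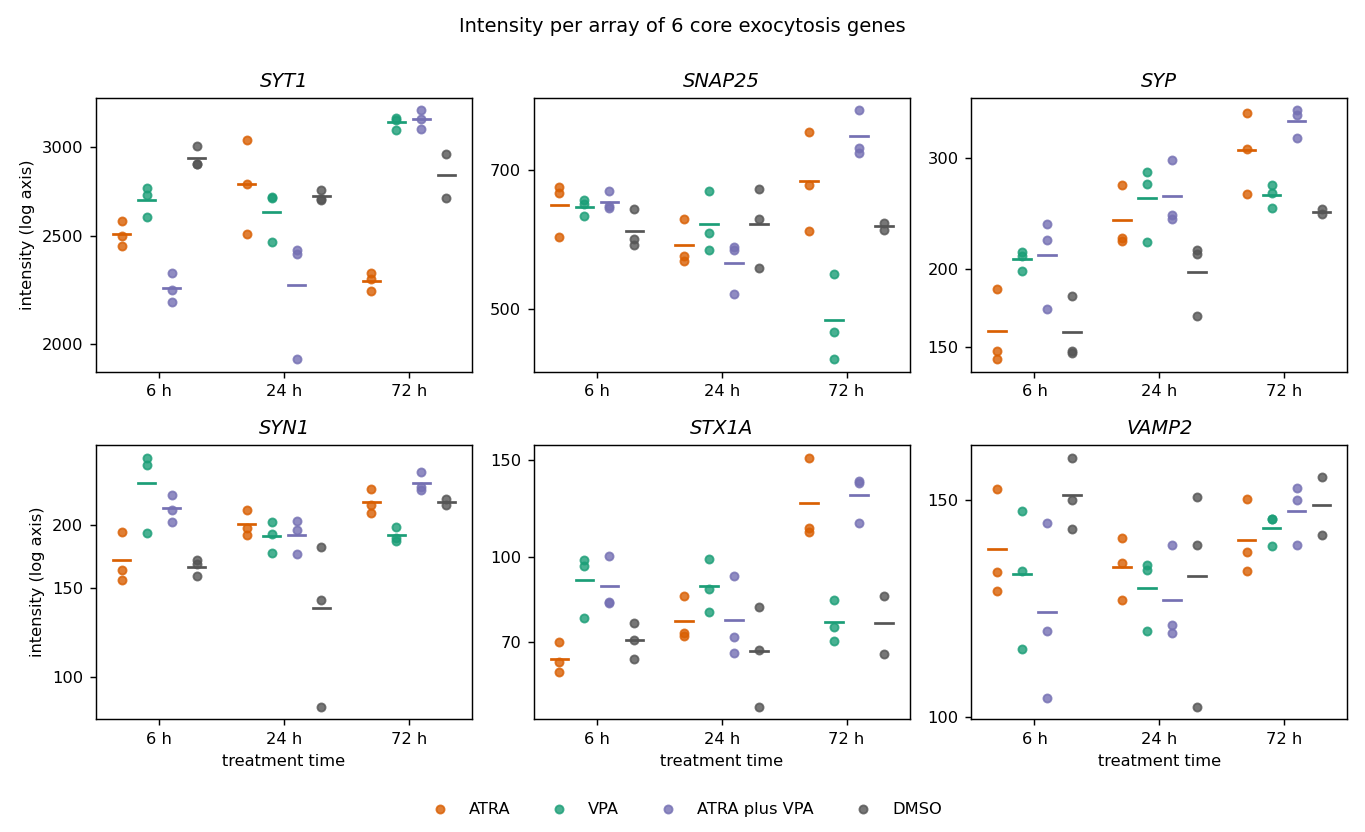
Intensity on every array (points, log axis) and group mean (bars) of 6 core exocytosis genes at 6, 24 and 72 h, with ATRA, VPA and ATRA plus VPA left of DMSO at each time. STX1A is highest with ATRA and with ATRA plus VPA at 72 h, VAMP2 overlaps DMSO in every treatment, and DMSO 24 h replicate 1 is the low SYN1 point.

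Docking, priming and clamping proteins held the other large changes. RAB3A, the vesicle GTPase of regulated exocytosis on chromosome 19, read 126, 83.4 and 95.4 with ATRA, 342, 323 and 309.7 with VPA and 338, 245 and 232 with both at 6 h, against 122, 148 and 137 with DMSO. Readings at 24 h were 195, 262 and 197 with ATRA, 441, 444 and 403 with VPA and 438, 323 and 363 with both, against 282, 246 and 235 with DMSO. At 72 h it read 526, 549 and 604 with ATRA, 414, 371 and 383 with VPA and 678, 691 and 672 with both, against 296 and 281 with DMSO. At 6 and 24 h all arrays with VPA lay above DMSO while ATRA overlapped it, and at 72 h every treated array lay above DMSO. The VPA change was 1.26 ± 0.14 (SE, adjusted p = 1.5e-07) at 6 h and 0.76 ± 0.14 (SE, adjusted p = 0.00027) at 24 h, and at 72 h it was 0.43 ± 0.15 (SE, adjusted p = 0.1), which did not pass. With both agents it was 0.98 ± 0.14 (SE, adjusted p = 6e-06) at 6 h, 0.55 ± 0.14 (SE, adjusted p = 0.0035) at 24 h and 1.23 ± 0.15 (SE, adjusted p = 1.6e-07) at 72 h. ATRA passed only at 72 h, with 0.95 ± 0.15 (SE, adjusted p = 1.6e-05). Of these calls, that with both agents at 24 h was lost when only the arrays compared were fitted.

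RPH3A, rabphilin, an effector that binds RAB3A in its GTP form, moved the other way. At 6 h it read 227, 183 and 159 with ATRA, 206, 196 and 187 with VPA and 165, 174 and 132 with both, against 282, 230.1 and 222 with DMSO, and the arrays with only ATRA overlapped DMSO. At 24 h it read 133, 133 and 148 with ATRA, 241, 256 and 226 with VPA and 149, 123 and 115 with both, against 349, 349 and 364 with DMSO. At 72 h it read 136, 133 and 105 with ATRA, 269, 215 and 225 with VPA and 169.7, 186 and 181 with both, against 489 and 419.5 with DMSO. All treated arrays of 24 and 72 h lay below all DMSO arrays, and those with ATRA lay below those with VPA alone. The DMSO readings rose between 6 and 72 h, and the VPA readings of 72 h lay above those of 6 h. The changes at 72 h are therefore relative to a risen vehicle level. The changes with ATRA were -1.35 ± 0.13 (SE, adjusted p = 1.9e-09) at 24 h and -1.86 ± 0.14 (SE, adjusted p = 1.9e-11) at 72 h, 3.63-fold lower. With VPA they were -0.56 ± 0.13 (SE, adjusted p = 0.0032) at 24 h and -0.94 ± 0.14 (SE, adjusted p = 3.4e-05) at 72 h. With both agents they were -0.64 ± 0.13 (SE, adjusted p = 0.00063) at 6 h, -1.46 ± 0.13 (SE, adjusted p = 3.7e-10) at 24 h and -1.34 ± 0.14 (SE, adjusted p = 8.9e-09) at 72 h. These 7 calls were kept under every other setting and without any 1 array.

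RAB3B, a close relative of RAB3A, rose at 6 h by 0.59 ± 0.12 (SE, adjusted p = 0.001) with VPA and 0.47 ± 0.12 (SE, adjusted p = 0.0076) with both, with 36.7, 33.5 and 31.5 in VPA arrays and 25.01, 37.7 and 32.1 in arrays with both, against 20.3, 22.6 and 23.9 in DMSO arrays. With a pseudocount of 32 these rises were 0.28 and 0.22, and the rise with both agents was lost without DMSO 6 h replicate 1 or ATRA plus VPA 6 h replicate 2. The second RAB3B probe set moved by 0.27 with VPA and 0.06 with both at 6 h. CPLX2, a complexin that clamps SNARE bundles, stayed between group means of 21.2 and 25.6 and did not pass. UNC13B, a priming factor, passed in no treatment.

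Of the active zone scaffolds, which organise the release site, RIMS2 fell and the others mostly did not pass. RIMS2, which links vesicle Rab3 to calcium channels, fell at 6 h, with changes of -0.36 ± 0.12 (SE, adjusted p = 0.048) with VPA and -0.49 ± 0.12 (SE, adjusted p = 0.0051) with both, and at 72 h, with -0.36 ± 0.13 (SE, adjusted p = 0.038) with ATRA and -0.64 ± 0.13 (SE, adjusted p = 0.00031) with both. It read 197, 243 and 167 with both agents at 72 h, against 299.5 and 327 with DMSO, and these groups did not overlap. The second probe set of RIMS2 moved less in the same direction. Its differences were -0.18 (VPA, 6 h), -0.03 (both, 6 h), -0.09 (ATRA, 72 h) and -0.22 (both, 72 h). The calls with both agents were kept without any 1 array. That with ATRA was lost without either DMSO array of 72 h or ATRA 72 h replicate 2, and that with VPA without any 1 of 5 of the 6 arrays. BSN, bassoon, passed once, with VPA at 72 h (-0.45 ± 0.13 SE, adjusted p = 0.033), which did not outlast leaving out 4 of the 5 arrays singly, and the liprins PPFIA2 and PPFIA3 passed nowhere.

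Among the endocytosis genes, SNAP91, a clathrin assembly protein, rose with both agents by 0.35 at 24 h and 0.32 at 72 h, and the first of these was 0.20 and not past the threshold without DMSO 24 h replicate 1, while the second was lost without any 1 of the 5 arrays. DNM1, the neuronal dynamin, fell with ATRA at 72 h (-0.43 ± 0.15 SE, adjusted p = 0.031), a call lost without either DMSO array or ATRA 72 h replicate 2. The second DNM1 probe set moved by -0.07 there. SYNJ1, the synaptojanin that strips clathrin coats, rose with ATRA and fell with VPA at 72 h: it read 402, 471 and 508 with ATRA, 286, 274 and 286 with VPA and 363, 328 and 315 with both, against 350.2 and 372 with DMSO. The changes were 0.34 ± 0.10 (SE, adjusted p = 0.0072) with ATRA and -0.36 ± 0.10 (SE, adjusted p = 0.022) with VPA, and the combination overlapped DMSO. With the mean of its 2 probe sets they were 0.13 and -0.24 and passed no longer, and the second probe set moved by -0.08 with ATRA. Neither call passed when DMSO 72 h replicate 1 was left out, and the VPA call was also lost without VPA 72 h replicate 2 or the other DMSO array. AMPH did not pass.

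Counted over the 39 genes, the calls at 6 h were in the groups that received VPA. ATRA at 6 h had 0 rises and 0 falls in limma, with 5 genes at an unadjusted p under 0.05, where 1.03% of all genes rose and 0.586% fell. Without ATRA 6 h replicate 1 the count was 1. VPA at 6 h had 9 rises and 2 falls (23.1% and 5.13% of the 39), where 6.46% of all genes rose and 4.7% fell. Without DMSO 6 h replicate 2 or 3, or VPA 6 h replicate 2, there were 8 rises and 0 falls. That count of 11 was 7 without DMSO 6 h replicate 1 and 6 without VPA 6 h replicate 1. Both agents at 6 h had 9 rises and 4 falls, where 6.73% of all genes rose and 4.87% fell, but 5 and 4 without DMSO 6 h replicate 1 and 5 and 5 without ATRA plus VPA 6 h replicate 1. The rises with VPA were SYN1, SYNGR1, SYNGR2, SYNGR3, SV2A, VAMP3, STX3, RAB3A and RAB3B, of which 5 belong to the vesicle membrane and surface.

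At 24 h ATRA had 3 rises (SYT5, SYT11 and SYN1) and 1 fall (RPH3A), where 12.5% of all genes rose and 6.03% fell. VPA had 6 rises and 1 fall, where 9.66% of all genes rose and 2.49% fell, and 4 calls without VPA 24 h replicate 2. Without DMSO 24 h replicate 1 it had 3 rises and 4 falls. Both agents had 9 rises and 2 falls, where 13.5% of all genes rose and 7.79% fell, but 5 and 4 without DMSO 24 h replicate 1 and 7 and 4 without ATRA plus VPA 24 h replicate 1. When only the arrays compared were fitted, both agents and VPA alone had 3 calls each. The split over all genes also turned on the scaling. After a second quantile normalization 1063 rose and 1198 fell with ATRA (1493 and 720 as deposited), 991 and 449 with VPA (1154 and 297) and 1333 and 1352 with both (1606 and 930).

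At 72 h ATRA had 10 rises and 6 falls, where 10.7% of all genes rose and 20.2% fell. After the second quantile normalization 1524 of all genes rose and 1793 fell, against 1277 and 2413 as deposited. Without ATRA 72 h replicate 2 there were 10 rises and 3 falls. Its 16 calls became 7 without DMSO 72 h replicate 1 or without DMSO 72 h replicate 2, and 10 after adjustment for the 3'/5' ratio. VPA had 1 rise and 4 falls, where 4.51% of all genes rose and 2.15% fell, and its calls became 1 without either DMSO array or VPA 72 h replicate 2, and 2 without VPA 72 h replicate 3. Both agents had 12 rises and 4 falls (30.8% and 10.3%), where 14.9% of all genes rose and 16.6% fell, and 9 rises and 2 falls without DMSO 72 h replicate 1. The median log2 change of the 39 genes was 0.11 with both agents at 72 h, against -0.01 over all genes, and 0.00 with ATRA, against 0.00 over all genes.

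**Figure D4:**
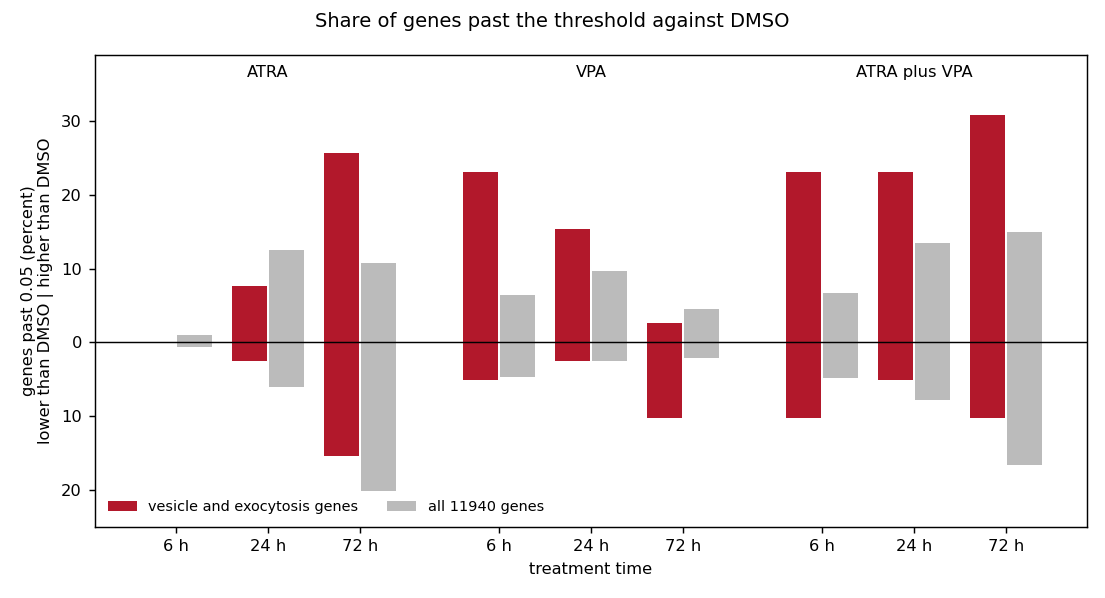
Percent of the 39 vesicle and exocytosis genes (red, left bar) and of all 11940 genes (grey, right bar) past an adjusted p of 0.05 against DMSO of the same time, higher above 0 and lower below 0. With ATRA plus VPA at 72 h 30.8% of the 39 genes and 14.9% of all genes were higher, and with ATRA at 6 h none of the 39 passed.

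Other measures moved with the treatments as well, and are given first for 72 h. The log2 3'/5' ratio of control probe sets, a sign of RNA and labelling quality, averaged 1.82 ± 0.17 with ATRA, 1.09 ± 0.16 with VPA and 1.36 ± 0.07 with both (SD, n = 3 each), against 1.06 ± 0.17 with DMSO (SD, n = 2). The summed intensity of 9 mesenchymal markers was 7450 to 8497 with ATRA, 8674 to 9483 with VPA and 12442 to 13204 with both, against 6026 to 6093 with DMSO, and FN1 group means ran from 147 to 3940. PRRX1 and YAP1 of that list stayed at or below 30. The sum of 9 sympathetic markers was 16160 to 16835 with ATRA, 22165 to 24763 with VPA and 15370 to 16628 with both, against 25024 to 25059 with DMSO. The sum of 5 epithelial markers was 295 to 357 with ATRA, 156 to 160.2 with VPA and 339 to 378 with both, against 177 to 191 with DMSO, with KRT19 the brightest and CDH1 at or below 30. At 24 h the epithelial sum was 464 to 646 with ATRA, 212 to 228 with VPA and 389.8 to 434 with both, against 156 to 207 with DMSO. The mesenchymal sum of that time was 7108 to 8012 with ATRA, 6961 to 7703 with VPA and 8230.0 to 9136 with both, against 5197 to 6214 with DMSO. The sympathetic sum at 24 h was 20331 to 21486 with ATRA, 20363 to 21228 with VPA and 17265 to 19217 with both, against 21498 to 25011 with DMSO. At 6 h the mesenchymal sums of all treatments overlapped DMSO, and the epithelial sum overlapped it except with ATRA (238 to 259.6, against 197 to 224 with DMSO). The sympathetic sum at 6 h was 22948 to 23564 with ATRA, 22613 to 24088 with VPA and 21006 to 22290.1 with both, against 25174 to 26038 with DMSO. At 24 h the 3'/5' ratio averaged 0.89 ± 0.36 with ATRA, 1.60 ± 0.63 with VPA and 0.97 ± 0.33 with both, against 1.05 ± 0.26 with DMSO (SD, n = 3 each). VPA 24 h replicate 2 had 2.33, the highest ratio of the 35 arrays. At 6 h the ratio averaged 0.20 ± 0.07 with ATRA, 0.44 ± 0.06 with VPA and 0.39 ± 0.45 with both, against 0.27 ± 0.09 with DMSO (SD, n = 3 each). The part of these measures in the changes of the vesicle genes was not tested.

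Both agents together were set against each agent alone. Against ATRA, the combination had 9 rises and 1 fall at 6 h (12% of all genes in either direction), 4 rises and 2 falls at 24 h (9.49%) and 7 rises and 2 falls at 72 h (20.8%). Against VPA it had 0 calls at 6 h (0.57% of all genes, and 3 of the 39 at an unadjusted p under 0.05 in limma), 1 rise and 4 falls at 24 h (11.9%) and 11 rises and 3 falls at 72 h (25.7%). The count of 10 against ATRA at 6 h was 6 without ATRA plus VPA 6 h replicate 1. At 24 h the 6 calls against ATRA were 2 without ATRA 24 h replicate 3 or ATRA plus VPA 24 h replicate 1, and 3 without ATRA 24 h replicate 1 or ATRA plus VPA 24 h replicate 2. The 5 calls against VPA at 24 h were 2 without VPA 24 h replicate 2 and 3 without ATRA plus VPA 24 h replicate 3.

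At 72 h SYNGR3 with both agents exceeded ATRA by 1.45 ± 0.20 (SE, adjusted p = 4.1e-06) and VPA by 2.44 ± 0.20 (SE, adjusted p = 8.3e-11). STX3 exceeded ATRA by 0.78 ± 0.17 (SE, adjusted p = 0.0016) and VPA by 1.46 ± 0.17 (SE, adjusted p = 1.2e-07). For STX3 these differences were 0.45 and 0.77 with a pseudocount of 32, and 0.40 and 0.76 with the mean of both probe sets. RAB3A exceeded VPA by 0.81 ± 0.14 (SE, adjusted p = 3.2e-05) and its difference from ATRA did not pass (0.28 ± 0.14 SE, adjusted p = 0.15). DNM1 was higher with both agents than with ATRA (0.70 ± 0.14 SE, adjusted p = 0.00038), and SYT1 likewise (0.48 ± 0.08 SE, adjusted p = 2.7e-05). Each of these values is from the brighter of the gene's 2 probe sets.

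The ATRA by VPA interaction, the combined change minus both single changes, tests departure from additivity on the log2 scale. At 6 h 0 of the 39 genes passed, as did 0% of all genes, and none of the 39 reached an unadjusted p under 0.05 in limma. At 24 h 0 passed where 0.737% of all genes did, with 5 at an unadjusted p under 0.05 and 1 call without DMSO 24 h replicate 3. At 72 h 2 passed, where 1.92% of all genes did. RPH3A had an interaction of 1.46 ± 0.19 (SE, adjusted p = 1.5e-05): the fall with both agents (-1.34) was smaller than that with ATRA alone (-1.86). SNAP25 had 0.49 ± 0.13 (SE, adjusted p = 0.049), a call lost under 5 of 7 other settings and without any 1 of 9 of the 11 arrays compared. The count was 1 without ATRA 72 h replicate 1 or 2, VPA 72 h replicate 2 or 3, ATRA plus VPA 72 h replicate 2 or 3, or either 72 h DMSO array. For SYNGR3 at 72 h the interaction was 0.66 ± 0.30 (SE, adjusted p = 0.26), and for STX3 0.86 ± 0.26 (SE, adjusted p = 0.086), neither past the threshold.

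Treatment effects at 72 h were compared with those at 6 h. For ATRA 5 genes had a higher effect at 72 h and 2 a lower one, where 17.3% of all genes passed in either direction. For VPA 1 was higher and 1 lower, where 2% of all genes passed, and for both agents 4 were higher and 3 lower, where 17% did. SYT11 had a difference of 1.597 ± 0.17 (SE, adjusted p = 4.1e-08) with ATRA, SYNGR3 1.74 ± 0.30 (SE, adjusted p = 0.00011) and RAB3A 1.38 ± 0.20 (SE, adjusted p = 1.4e-05). Part of the RAB3A difference lay at 6 h, where its change with ATRA was -0.43 and did not pass. With VPA the RAB3A effect was lower at 72 h than at 6 h, with a difference of -0.83 ± 0.20 (SE, adjusted p = 0.024), and the SYN2 effect was higher (0.77 ± 0.18 SE, adjusted p = 0.016). With both agents the SYN2 effect was a rise at 72 h and a fall at 6 h (1.44 ± 0.18 SE, adjusted p = 7.5e-07), and the difference was 0.67 with the mean of both probe sets. The ATRA count of 7 was 4 without DMSO 72 h replicate 1, as was the count of 7 for both agents. The VPA count of 2 was 0 without either DMSO 72 h array and 1 without any 1 of the VPA 72 h arrays.

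Vehicle cells changed with time as well. Against DMSO at 6 h, 5 of the 39 rose and 2 fell at 24 h, where 15.2% of all genes passed, and 6 rose and 0 fell at 72 h, where 10.6% did. At 24 h SYN2, SNAP23, RAB3A, RPH3A and UNC13B rose, and NAPA and RIMS2 fell. RAB3A rose by 1.09 ± 0.15 (SE, adjusted p = 1.3e-05), RPH3A by 0.89 ± 0.14 (SE, adjusted p = 8.1e-05), SYN2 by 0.79 ± 0.13 (SE, adjusted p = 0.00023), UNC13B by 0.70 ± 0.13 (SE, adjusted p = 0.00039), SYP by 0.64 ± 0.15 (SE, adjusted p = 0.0043) and SV2A by 0.57 ± 0.13 (SE, adjusted p = 0.0048) at 72 h. The readings of RPH3A in DMSO arrays were 489 and 419.5 at 72 h, against 282, 230.1 and 222 at 6 h, and those of RAB3A were 296 and 281 at 72 h, against 122, 148 and 137 at 6 h. These groups did not overlap. The 3'/5' ratio was also higher in DMSO arrays at 72 h (1.06 ± 0.17, SD, n = 2) than at 6 h (0.27 ± 0.09, SD, n = 3), and with that ratio as a covariate SYP and SV2A no longer passed. Both were also lost without DMSO 72 h replicate 1, and SYP without DMSO 72 h replicate 2.

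Probe sets of a gene did not always move together. Of the 39 genes, 20 had more than 1 probe set, and 39 of the called changes against DMSO belonged to them. In 28 of these all other probe sets had the same sign, and in 11 at least 1 had the opposite sign, among them all 4 calls of STX3. SYNGR3, RAB3A and RPH3A were each read by a single probe set.

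**Figure D5:**
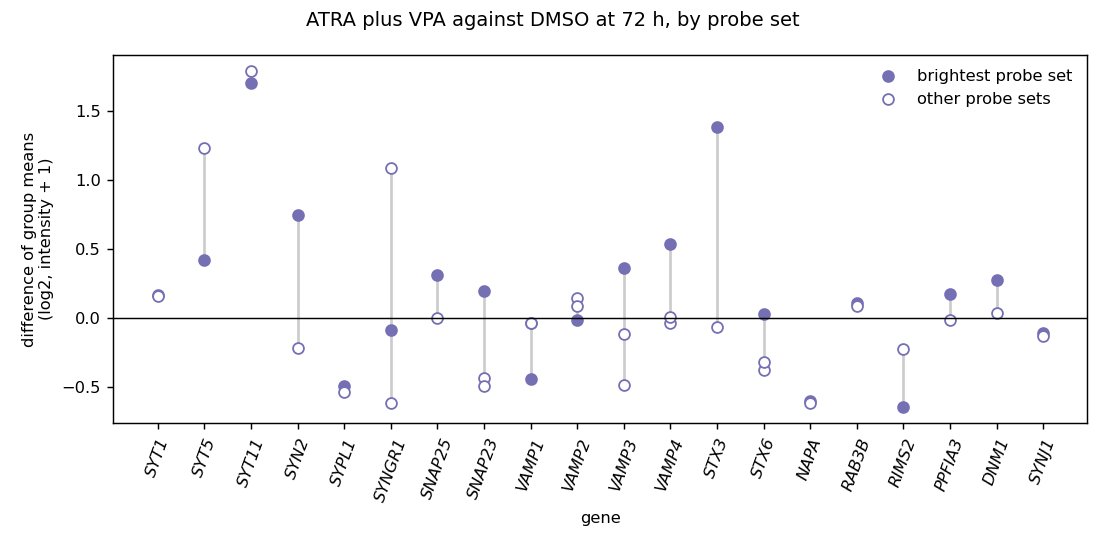
Difference of group means, ATRA plus VPA minus DMSO at 72 h (log2 of intensity + 1), for each probe set of the 20 genes with more than 1; filled points are the brightest probe set, used for the gene, and open points the others. Both probe sets of SYT11 lie at 1.70 and 1.78, while those of STX3 lie at 1.38 and -0.07.

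The remaining genes of the vesicle cycle were taken from a list of 103, of which 78 were measured. With ATRA 1 rose at 6 h, 13 rose and 1 fell at 24 h, and 8 rose and 7 fell at 72 h. Of all genes, 1.03%, 12.5% and 10.7% rose with ATRA at these times, and 0.586%, 6.03% and 20.2% fell. With VPA 6, 11 and 5 of the 78 rose at 6, 24 and 72 h and 0 fell. Of all genes, 6.46%, 9.66% and 4.51% rose with VPA at these times, and 4.7%, 2.49% and 2.15% fell. With both agents 10 of the 78 rose at 6 h, 19 rose and 2 fell at 24 h, and 18 rose and 2 fell at 72 h. Of all genes, 6.73%, 13.5% and 14.9% rose with both at these times, and 4.87%, 7.79% and 16.6% fell. The median log2 change of the 78 genes at 72 h was 0.03 with both agents, against -0.01 over all genes. Over its 5 sub-lists at 72 h, the rises and falls with both agents were 3 and 0 of 21 (vesicle membrane, filling and trafficking), 7 and 0 of 17 (docking, priming and fusion), 4 and 1 of 14 (active zone), 3 and 1 of 20 (endocytosis) and 1 and 0 of 6 (exocyst), where 14.9% of all genes rose and 16.6% fell. With ATRA they were 3 and 1, 2 and 0, 1 and 1, 1 and 5, and 1 and 0 in the same order, where 10.7% of all genes rose and 20.2% fell.

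SYNJ2, the ubiquitous relative of SYNJ1, had the largest rise of these at 72 h. It read 477, 452 and 518 with ATRA, 204, 260.0 and 221 with VPA and 756, 707 and 897 with both, against 127 and 110.0 with DMSO, and no treated group overlapped DMSO. The changes were 2.01 ± 0.19 (SE, adjusted p = 1e-09) with ATRA and 2.71 ± 0.19 (SE, adjusted p = 1.2e-12) with both. These are relative to a falling vehicle level, since SYNJ2 averaged 265 with DMSO at 6 h and 119 at 72 h. The VPA mean at 72 h (228) was below the DMSO mean at 6 h. For the pathway genes named here only the main fit is given. STX7, a syntaxin of late endosomes, read 554, 583 and 608 with both agents at 72 h, against 189.5 and 172 with DMSO, a change of 1.68 ± 0.11 (SE, adjusted p = 3.1e-13). The largest falls at 72 h were those of ATP6V1B2, a subunit of the proton pump that acidifies vesicles (-0.83 ± 0.15 SE, adjusted p = 0.00011 with ATRA at 72 h), and CLTB, a clathrin light chain (-0.52 ± 0.14 SE, adjusted p = 0.0042 with ATRA at 72 h).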

How the data were processed

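Total RNA from BE(2)-C cells was labelled from an oligo-dT primer and hybridised to Affymetrix arrays, per the labels' protocols. The deposited values are intensities on a linear scale, normalized by RMA per the submitters' processing notes, and the RMA version is not given in the sources used here. The table held 22930 probe sets for 35 arrays. GEO's platform annotation gave 19415 of them 1 gene symbol, 125 several and 2866 none, and 524 were controls, of which 98 carried a symbol. Of those with a symbol, 19290 were matched to RefSeq by gene ID, with 0 symbols changed. The brightest probe set stood for each of 11940 genes, and 4507 genes had several. RMA can pull low values together, so changes of dim genes may be understated, which was not tested.

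Log2(intensity + 1) was fitted with limma 3.58.1 in R 4.3.3, with 12 group means over all 35 arrays, with Benjamini-Hochberg adjustment of p-values across all genes of each of 23 contrasts, at a threshold of 0.05. The fit had 23 residual degrees of freedom, and its script was tested on simulated data. Tables and plots used Python 3.11.15, pandas 2.3.3 and matplotlib 3.10.9. The alternatives were a pseudocount of 32, the mean of all probe sets, a second quantile normalization, the dimmest genes left out, the 3'/5' ratio of control probe sets as a covariate, only the arrays compared, the replicate number as a block, and each array left out. No 2 arrays were identical. The number of arrays limits the precision.

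The genes, lists and tests were chosen with earlier results of these data known. Genes were given array by array where they passed with a log2 change of at least 1 against DMSO, together with SYT1, SNAP25, SYP, SYN1, STX1A, VAMP2 and RAB3A. Other members were given by their calls, and some, such as SYN2, SV2A and RIMS2, with values chosen after these were seen. Of the other pathway genes, the 2 largest rises and 2 largest falls at 72 h were named.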

Additional observations from a re-analysis of the deposited data

Results flagged for a closer look

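The effects below differed between times or between agents by limma's test of the difference itself, adjusted over all genes. None of the differences was weighed further.

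Departure from additivity of ATRA and VPA at 72 h was found for RPH3A, with 1.46 (adjusted p = 1.5e-05), and for SNAP25, with 0.49 (adjusted p = 0.049). The ATRA effect at 72 h exceeded that at 6 h for SYNGR3 by 1.74 (adjusted p = 0.00011), SYT11 by 1.60 (adjusted p = 4.1e-08), RAB3A by 1.38 (adjusted p = 1.4e-05), STX1A by 0.82 (adjusted p = 0.0087) and SV2A by 0.57 (adjusted p = 0.025). It was lower at 72 h for RPH3A, at -1.48 (adjusted p = 1.4e-06), and for SYPL1, at -0.57 (adjusted p = 0.045). The VPA effect was higher at 72 h for SYN2, at 0.77 (adjusted p = 0.016), and lower for RAB3A, at -0.83 (adjusted p = 0.024).

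The effect of both agents was higher at 72 h than at 6 h for SYNGR3, at 1.80 (adjusted p = 4.9e-05), SYT11, at 1.61 (adjusted p = 2.5e-08), SYN2, at 1.44 (adjusted p = 7.5e-07), and SYT1, at 0.56 (adjusted p = 0.00059). It was lower for VAMP1, at -0.96 (adjusted p = 0.025), RPH3A, at -0.69 (adjusted p = 0.0094), and SYPL1, at -0.56 (adjusted p = 0.047). VAMP1 passed against DMSO at no single time. In SYT11, SYNGR3, RAB3A and RPH3A the ATRA differences were kept without any 1 of the 11 arrays and under all other settings tried, as was the RPH3A departure from additivity. Those of SYNGR3, SYT11, SYN2 and SYT1 with both agents were kept likewise. All others given here were lost in at least 1 of these: the SNAP25 departure, SYPL1 with ATRA and with both, STX1A and SV2A with ATRA, SYN2 and RAB3A with VPA, and VAMP1 and RPH3A with both.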

How the results depend on the processing

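Of 161 counts of called genes recomputed under other settings, 144 were within 1.5 times the reported count. When only the arrays compared were fitted, the counts were 3 for VPA at 24 h, 3 for both agents at 24 h, 2 and 3 for both agents against ATRA and against VPA at 24 h, 2 for DMSO at 24 h against 6 h, and 11 and 4 for the ATRA and VPA effects at 72 h against 6 h. After adjustment for the 3'/5' ratio they were 10 for ATRA at 72 h, 1 for the interaction at 72 h and 2 for DMSO at 24 h. With the mean of all probe sets they were 3 for both agents against VPA at 24 h, 1 for the interaction and 1 for the VPA effect. With a pseudocount of 32 they were 4 for the interaction and 4 for the VPA effect, and a second quantile normalization gave 11 for DMSO at 24 h. The cause was not tested.

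Leaving out 1 array at a time gave 0 to 1 calls for ATRA at 6 h, 6 to 8 for VPA at 6 h, 4 to 9 for VPA at 24 h, 7 to 15 for ATRA at 72 h and 1 to 4 for VPA at 72 h. For both agents against ATRA it gave 6 to 9 at 6 h and 2 to 6 at 24 h, and against VPA 2 to 6 at 24 h. The interaction had 0 to 1 at 24 h and 1 to 2 at 72 h, and the effects at 72 h against 6 h had 4 to 8 (ATRA), 0 to 2 (VPA) and 4 to 7 (both). The mean of all probe sets reversed 4 named rises: VAMP3 with VPA at 24 h (-0.10) and with both at 72 h (-0.081), VAMP4 with ATRA at 72 h (-0.044) and SNAP23 in DMSO at 24 h against 6 h (-0.71).

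Of 83 called changes against DMSO, those lost were 25 with only the arrays compared, 16 with the mean of probe sets, 12 with that adjustment, 11 with the second quantile normalization, 2 with the pseudocount and 0 with the dimmest genes left out. Arrays sharing a replicate number did not deviate together on average (mean r = -0.009 over 51 pairs, from -0.296 to 0.348, and 0.005 for other pairs). Deviations from a group mean sum to 0 in groups this small, which limits the check. Whether the numbers pair the samples was therefore not settled. A fit with the replicate number as a block lost 6 of the 83 and left 1 gene in the interaction at 72 h. Signal near the lower quartile limits SYT13, SYT17, CPLX2, PPFIA2 and AMPH, and 2 DMSO arrays limit every comparison that uses DMSO at 72 h.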
